A study of Mus musculus with 23 samples.

Results

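The step examined here is the last interval of a muscle differentiation course in C2C12 cells labelled Runx1KO, from day 3 to day 6 in low-serum medium. C2C12 is an established mouse myoblast line that divides in serum-rich medium and, when serum is lowered, leaves the cell cycle, fuses and forms myotubes. Its members are 6 of the 23 libraries of the series: 3 libraries labelled KO on day 3 and 3 labelled KO on day 6, both in medium with 2% horse serum. The other groups used for comparison are the control libraries (labelled WT) on days 3 and 6, 3 each, and libraries of both genotypes on day 0, taken from medium containing 20% fetal bovine serum, and on day 1. Library titles put the final harvest on day 6 and the series' text on day 5, and day 6 is used here. Poly(A) RNA was sequenced, and the deposited values are estimated counts and TPM per gene. How the knockout was made, whether the Runx1KO cells are 1 clone, and whether the 3 libraries of a group came from separate cultures is not given in the sources used here. The p-values therefore measure only the spread between these libraries, which may be technical.

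Differentiation of a myoblast runs in an order. The regulators MyoD and myogenin switch on muscle genes, the CDK inhibitor p21 (Cdkn1a) and the retinoblastoma protein hold the cell out of S phase, and E2F target genes for DNA synthesis and the later genes for mitosis go silent. Sarcomere proteins, the calcium release apparatus and the enzymes that supply ATP to contraction then accumulate, and embryonic forms of several of these proteins give way to adult ones.

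Runx1 encodes the transcription factor that the cells are labelled as lacking. Its transcript was measured at 249, 199 and 203 CPM (counts scaled to a common library total) in the KO libraries on day 3 and at 297, 319.7 and 315 CPM on day 6. WT libraries held 153, 148 and 145 CPM on day 3 and 146, 148 and 165 CPM on day 6, below every KO library of the same day. The Runx1 transcript thus rose over the step in the libraries labelled KO (log2 fold change 0.52, SE 0.08, adjusted p = 2.11e-05). A gene-level count does not show whether the transcript is intact or whether protein is made, so the mRNA does not bear out the label, and the libraries are called "labelled KO" throughout.

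The 6 libraries held between 22476437 and 23684077 estimated counts, a range of 1.05 times, so that 3 counts corresponded to 0.129 to 0.136 CPM. In a principal component analysis of log2 CPM over these 6 libraries the first component, 65.4% of the variance, separated the days. Replicate 1 of day 3 stood towards the day 6 libraries. Its mean log2 CPM over the sarcomere genes was 5.467 against 4.990 and 5.101 in the other day 3 libraries, and over DNA replication genes 5.387 against 5.622 and 5.682. Results that this day 3 library decides are given with and without it. Among the day 6 libraries, replicate 1 stood nearest to day 3 on the first component (34.7 against 40.6 and 40.5). Its sarcomere mean was 6.152 against 6.42 and 6.407. Markers of other cell types were summed per library. The 6 smooth muscle markers, none of them at 0 in a whole group, reached 1992 to 2626 CPM on day 3 and 2102 to 2313 CPM on day 6, most of it Acta2, which dividing myoblasts also express. The 8 adipocyte markers reached 16.44 to 17.41 and then 23.39 to 24.88 CPM, with Adipoq, Cidec, Lep and Cfd at 0. The 5 endothelial markers stayed under 4 CPM with Kdr at 0. The 6 neuron and glia markers went from 84.13 to 100.9 CPM on day 3 to 27.14 to 28.45 CPM on day 6, carried by Tubb3, with Rbfox3 and Snap25 at 0, and the 10 bone and cartilage markers from 94.99 to 110.9 CPM to 115.5 to 125.5 CPM. The sum of 6 leukocyte markers went from 1.34 to 2.263 CPM on day 3 to 10.15 to 12.19 CPM on day 6, almost all of it Cd68, a lysosomal membrane protein, while Ptprc and Adgre1, which define leukocytes and macrophages, were at 0 in all 6 libraries. Their part in the results was not tested.

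Of 14187 genes tested with edgeR's quasi-likelihood test, 5865 (41.3%) differed between day 6 and day 3 in the libraries labelled KO at an adjusted p under 0.05. Of these, 2862 were higher (20.2% of the genes tested) and 3003 lower (21.2%). The side with more calls depended on the scaling: RLE size factors gave 3285 higher and 2471 lower (57.1% higher, against 48.8%), and DESeq2 3263 and 2529. Changes of at least 2-fold leaned upwards, with 1001 genes higher (7.06%) and 388 lower (2.73%). Groups of 3 libraries did not overlap for 3717 genes higher on day 6 (26.2%) and 4082 lower (28.8%), and the median log2 fold change of all genes tested was -0.01. In WT cells the same interval gave 1389 calls (9.79%), 691 higher (4.87%) and 698 lower (4.92%). This count was 812 without WT day 3 replicate 1, 778 without WT day 3 replicate 2, 762 without WT day 6 replicate 1 and 2271 without KO day 1 replicate 2. The difference of the 2 steps, tested as an interaction, passed for 1753 genes (12.4%), 903 with a more positive step in KO (6.36%) and 850 with a more negative one (5.99%). Among these, the absolute change was larger in KO for 1669 genes and in WT for 84. With the size factors of the RLE method the split of these differences was 1072 to 664 (61.8% higher, against 51.5%). Leaving out 1 library of the groups compared moved the number of differences to between 1125 (without KO day 3 replicate 3) and 1893 (without KO day 3 replicate 1). It was 2837 without KO day 1 replicate 2, which is in none of these groups. That library enters the filter, the scaling and the estimate of spread.

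**Figure D1:**
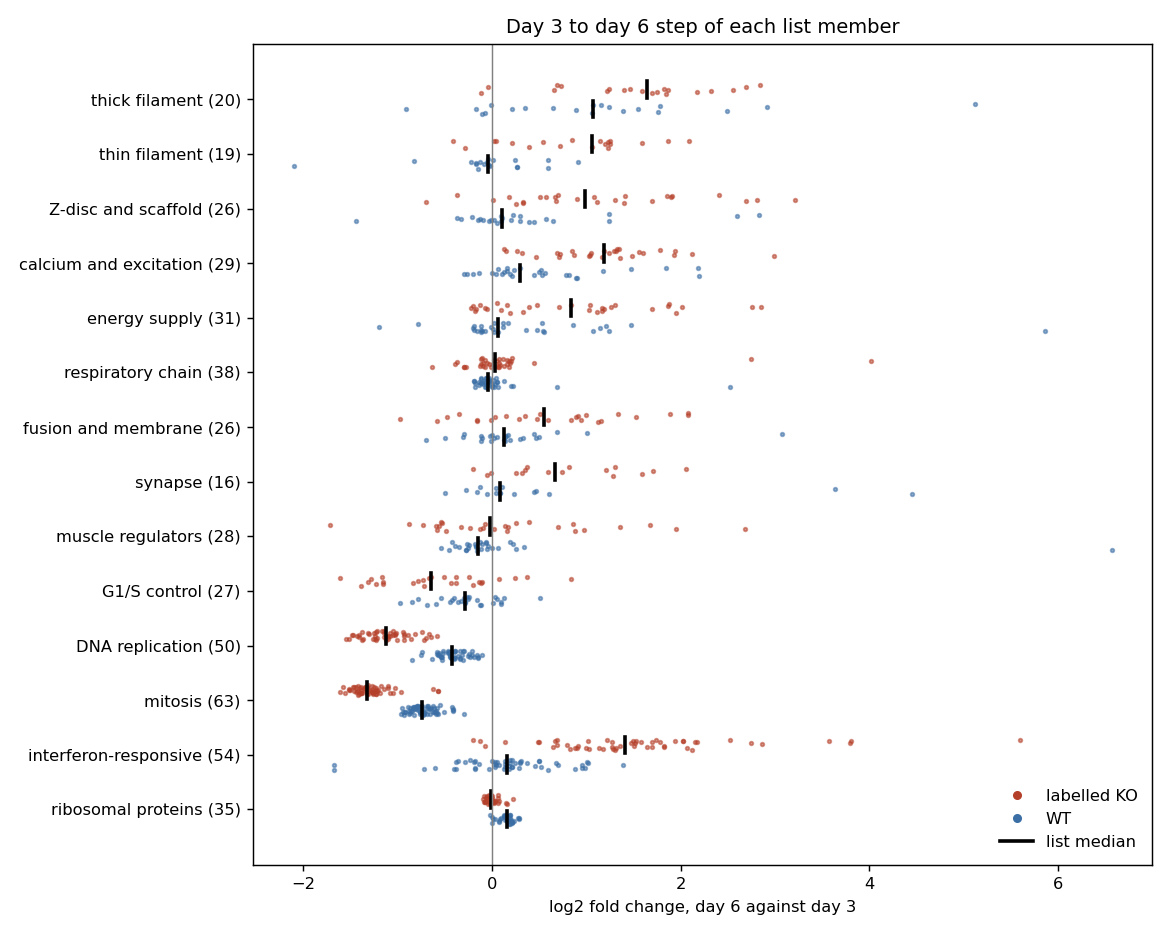
Day 3 to day 6 log2 fold change of every tested member of 14 gene lists (number of members in brackets), with libraries labelled KO in red, WT in blue and the list median as a black bar. In the labelled KO the medians of the 3 sarcomere lists, the calcium list and the interferon list lie between 0.99 and 1.64 and those of DNA replication and mitosis at -1.12 and -1.32. Folds of genes at or near 0 on day 3, among them the WT points above 4, depend on the prior count of the fit.

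Most genes of the contractile apparatus rose. Of 65 tested sarcomere genes, 51 rose and 3 fell in the libraries labelled KO, with a median log2 fold change of 1.21, against 20.2% and 21.2% of all genes. By compartment, 15 of 20 thick filament genes, 14 of 19 thin filament genes and 22 of 26 Z-disc and scaffold genes rose, with medians of 1.64, 1.06 and 0.99. In WT cells 16 sarcomere genes rose and 4 fell, with a median of 0.20, where 4.87% and 4.92% of all genes did. The interaction test gave a more positive step in the labelled KO for 31 of the 65, among them Actc1, which did not rise there, and a more negative one for 2, against 6.36% and 5.99% of all genes. Leaving out KO day 3 replicate 1 left the count of rising genes at 51 and the median at 1.43.

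The thin filament and its myosin partners carried large rises. In what follows, a bare number after "rose by" or "fell by" is a log2 fold change. Acta1, skeletal alpha-actin and the core of the thin filament, stood at 3234, 1772 and 1931 CPM on day 3 and at 6046, 7429.7 and 7381 CPM on day 6. All 3 day 6 libraries lay above the highest day 3 library (log2 fold change 1.59, SE 0.22, adjusted p = 3.59e-06). In the WT libraries it measured 1129.7, 1139 and 1246 CPM and then 1153, 975 and 1001 CPM, and the 2 steps differed by 1.76 on the log2 scale (SE 0.31, adjusted p = 0.000577). Per transcript length its mean in the labelled KO went from 2790 to 8546 TPM. Mylpf, the fast regulatory myosin light chain, measured 578, 367 and 421 CPM on day 3 and 926, 1168 and 1126 CPM on day 6 (log2 fold change 1.24, SE 0.17, adjusted p = 3.42e-06). The groups did not overlap. Myl1 and Myl4, further myosin light chains, went from 174 ± 43.2 to 617 ± 103 CPM and from 226 ± 55.6 to 814 ± 117 CPM (mean ± SD, n = 3), with log2 fold changes of 1.82 and 1.85. Myom2, the M-band protein myomesin 2 of mature fast fibres, measured 141, 86.2 and 102 CPM and then 473, 528 and 484 CPM (log2 fold change 2.17, SE 0.14, adjusted p = 7.92e-11). Its 3 day 6 libraries were more than 3 times as high as any day 3 library.

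The giant and scaffold proteins followed with more varied sizes. Neb, the nebulin ruler of the thin filament, went from 17.6 ± 7.38 to 64.2 ± 3.40 CPM (log2 fold change 1.87, SE 0.24, adjusted p = 1.62e-06). Csrp3, a Z-disc LIM protein, and Hspb7, a small heat shock protein of muscle, rose by 1.91 and 2.81 on the log2 scale. Ttn, titin, had a log2 fold change of only 0.50 (adjusted p = 0.025), its groups overlapped, and the call was lost in 6 alternatives, for example without KO day 3 replicate 3 (0.27, adjusted p = 0.187, the highest of the 6) or replicate 2 (adjusted p = 0.0761) and without KO day 6 replicate 1 or 2 (adjusted p = 0.0631 and 0.0621). Des, desmin, already abundant in growth medium, rose by 0.33. The 3 sarcomere genes that fell were Pdlim3 (-0.70), Tpm3 (-0.42), a slow and non-muscle tropomyosin, and Actn3 (-0.37), the alpha-actinin of fast fibres.

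Among the sarcomere genes without a call were Myh3 and Actc1, forms that appear early in muscle development. Myh3, embryonic myosin heavy chain, stood at 662, 334 and 344 CPM on day 3 and at 377, 449 and 408 CPM on day 6 (log2 fold change -0.12, SE 0.19, adjusted p = 0.666). The day 6 libraries lay between the day 3 libraries, and the sign of the change turned without KO day 3 replicate 1 (0.28, adjusted p = 0.177). Actc1, cardiac alpha-actin, the form that precedes skeletal actin, measured 1493, 649.7 and 693 CPM and then 873, 1008 and 1039 CPM (log2 fold change 0.04, SE 0.23, adjusted p = 0.905). Without KO day 3 replicate 1 it rose (0.54, adjusted p = 0.0209). In WT libraries Actc1 went from 216, 228 and 248 CPM to 60.6, 45.6 and 55.5 CPM, and the difference between the steps was 2.14 (SE 0.33, adjusted p = 0.000172). Myh1, an adult fast myosin heavy chain, went from 65.2 ± 5.29 to 179.8 ± 28.8 CPM in the labelled KO (log2 fold change 1.46, SE 0.17, adjusted p = 3.65e-07). Its fold change was larger in WT, at 2.91, so that the difference of the steps was -1.45 (SE 0.25, adjusted p = 0.000555). The WT counts of Myh1 went from 253, 276 and 323 to 2337, 1491 and 2674. They stayed below the day 6 counts of the labelled KO (3325, 4624 and 4447).

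The share of a later form in a pair of related proteins was computed from TPM, which is per length. Acta1 made up 71.4% ± 2.89 of Acta1 plus Actc1 on day 3 and 87.5% ± 0.351 on day 6 (SD, n = 3), and in WT 83.3% ± 0.321 and 95% ± 0.416. Myh1 went from 11.3% ± 4.16 to 23.8% ± 3.29 of Myh1 plus Myh3, against 3.14% ± 0.33 and 33.3% ± 4.74 in WT. Mean Myh3 went from 156 to 158 TPM in the labelled KO and from 112 to 58.3 TPM in WT. Both pairs moved towards the adult form in each genotype, and in the labelled KO their libraries did not overlap between the days. The creatine kinase pair differed between genotypes. The muscle form Ckm went from 72.9% ± 2.46 to 81.5% ± 0.306 of Ckm plus Ckb in the labelled KO and from 49.1% ± 2.07 to 29.3% ± 3.5 in WT. The mean shares of the fast troponins moved by little in the labelled KO, and those of Tnni2 and Tnnc2 overlapped between the days: Tnnt3 made up 37.4% ± 0.551 and 36.3% ± 0.608 of Tnnt3 plus Tnnt2, Tnni2 36.2% ± 3.11 and 35.4% ± 2.72 of Tnni2 plus Tnni1, and Tnnc2 32.8% ± 1.75 and 31.8% ± 0.702 of Tnnc2 plus Tnnc1. Both members of the troponin T pair rose, Tnnt3 by 1.06 and Tnnt2 by 1.14. Acta1 and Actc1, like the myosin heavy chains, are close in sequence, and how reads shared between such genes were divided is an estimate of the authors' counting. No test was run on these shares, and they are given as a description.

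**Figure D2:**
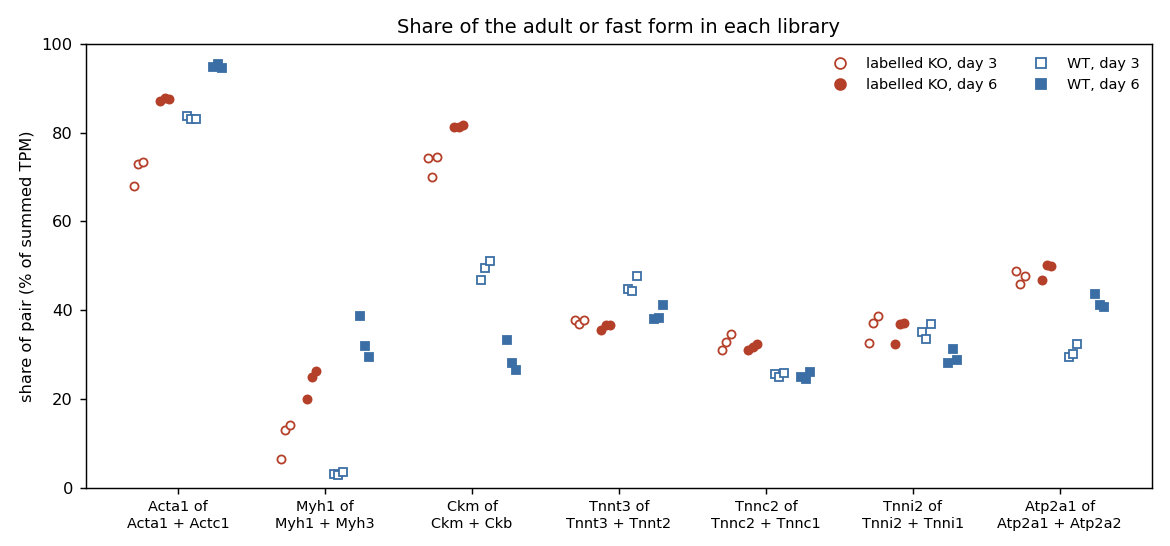
Share of the adult or fast form in 7 pairs of related genes, in percent of the summed TPM of the pair, with 1 point per library (open, day 3; filled, day 6; red, labelled KO; blue, WT). Acta1 moves from 71.4% to 87.5% of its pair in the labelled KO, Ckm moves up in the labelled KO and down in WT, and the mean shares of the 3 fast troponins lie between 31.8% and 37.4% in the labelled KO.

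Myogenic factors bind E-boxes, and serum response factor binds the CArG box, in many muscle promoters. Stretches upstream of the start of 3 genes that rose are shown because each holds one of these elements, in capitals: the CArG box of Acta1 and the E-box CAGCTG of Mylpf and of Atp2a1, the calcium pump described below. They are RefSeq sequence on build GRCm38.p6, 5′ to 3′ on the gene's strand.
Acta1, chr8:123894816-123894875, minus strand: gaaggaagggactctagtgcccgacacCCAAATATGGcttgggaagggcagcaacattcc
Mylpf, chr7:127211528-127211587, plus strand: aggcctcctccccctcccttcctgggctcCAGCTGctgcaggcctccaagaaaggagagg
Atp2a1, chr7:126463110-126463153, minus strand: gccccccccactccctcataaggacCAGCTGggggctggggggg
Within 250 bases upstream of the start, on either strand, CAGCTG was found in 21 of 66 promoters of the sarcomere list (31.8%), in 7 of 22 of the calcium and excitation list (31.8%), in 12 of 38 of the energy list (31.6%) and in 13% of 32851 mouse promoters. The CArG box was found in 10.6% of the sarcomere promoters, in 0 of the 22 calcium and 0 of the 38 energy promoters, and in 1.47% of all promoters. The MEF2 element was found in 18.2% of sarcomere, 13.6% of calcium, 5.26% of energy and 2.92% of all promoters. Promoters were matched for 56 of 71 sarcomere genes and 17 of 30 calcium genes. A match describes the letters only, since no binding was measured.

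Genes of excitation and calcium release, which couple the membrane potential to contraction, rose in most cases. Of 29 tested members 25 rose and none fell, with a median log2 fold change of 1.19, where 20.2% of all genes rose. In WT 9 rose, with a median of 0.297, where 4.87% of all genes rose. The interaction test gave a more positive step in the labelled KO for 16 of the 29, where 6.36% of all genes passed in that direction. Ryr1, the calcium release channel of the sarcoplasmic reticulum, stood at 83.4, 54.2 and 43.1 CPM on day 3 and at 241, 231 and 216 CPM on day 6 (log2 fold change 1.93, SE 0.17, adjusted p = 5.12e-09). The lowest day 6 library was more than 2 times the highest day 3 library. Cacna1s and Cacnb1, the pore and the beta subunit of the voltage sensor that opens Ryr1, went from 27.6 ± 8.52 to 69.0 ± 7.95 CPM and from 46.4 ± 11.1 to 178 ± 16.7 CPM. Jph2, which tethers the reticulum to the surface membrane, rose by 1.17 on the log2 scale. The alpha-2-delta subunit Cacna2d1 did not pass the test (0.14, adjusted p = 0.27).

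Both calcium pumps that refill the reticulum rose. Atp2a1, the pump of fast fibres, measured 317, 206 and 229 CPM and then 635, 803 and 781 CPM (log2 fold change 1.56, SE 0.14, adjusted p = 6.55e-09). Atp2a2, the pump of slow and cardiac muscle that many other cells also use, measured 498, 374 and 382 CPM and then 998, 1110.0 and 1087 CPM (log2 fold change 1.35, SE 0.09, adjusted p = 2e-10). Atp2a1 held 47.5% ± 1.46 of the pair by TPM on day 3 and 49% ± 1.82 on day 6. In WT Atp2a2 measured 267, 266 and 248 CPM and then 274, 240.1 and 292 CPM, and its difference between the steps was 1.30 (SE 0.13, adjusted p = 9.94e-06).

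Among energy supply genes, 20 of 31 tested members of glycolysis, glycogen use and phosphocreatine rose and 1 fell, with a median of 0.84, whereas of 38 genes of the respiratory chain, the citrate cycle and fatty acid oxidation 6 rose and 5 fell, with a median of 0.03, where 20.2% of all genes rose and 21.2% fell. The median of the first list was 0.51 when genes with a mean count under 50 were left out, and 0.66 without KO day 3 replicate 2. Mb, myoglobin, which stores oxygen in muscle, stood at 42.5, 23.5 and 28.0 CPM on day 3 and at 186, 250.1 and 243 CPM on day 6 (log2 fold change 2.86, SE 0.18, adjusted p = 2.83e-10). Every day 6 library was more than 4 times as high as any day 3 library. Pygm and Gys1, muscle glycogen phosphorylase and glycogen synthase, rose by 1.69 and 1.04, Pfkm and Hk2, which control glycolysis, by 1.12 and 1.16, and Cox6a2, the muscle form of a cytochrome oxidase subunit, by 1.95. Ckm, muscle creatine kinase, measured 338, 167 and 200.3 CPM and then 385, 424 and 454 CPM (log2 fold change 0.84, SE 0.17, adjusted p = 0.000501). In WT it went from 54.6, 57.4 and 53.9 to 26.4, 24.5 and 21.3 CPM, so that Ckm rose in one genotype and fell in the other, with a difference of 2.04 (SE 0.25, adjusted p = 3.83e-05). Among enzymes that most cells use, Aldoa rose by 0.39, Pkm had a log2 fold change of 0.05 (adjusted p = 0.67) and Ckb of 0.15 (adjusted p = 0.43). Ckb rose without KO day 3 replicate 1 (0.45, adjusted p = 0.00391). Idh2, a mitochondrial enzyme of the citrate cycle, fell by 0.64.

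**Figure D3:**
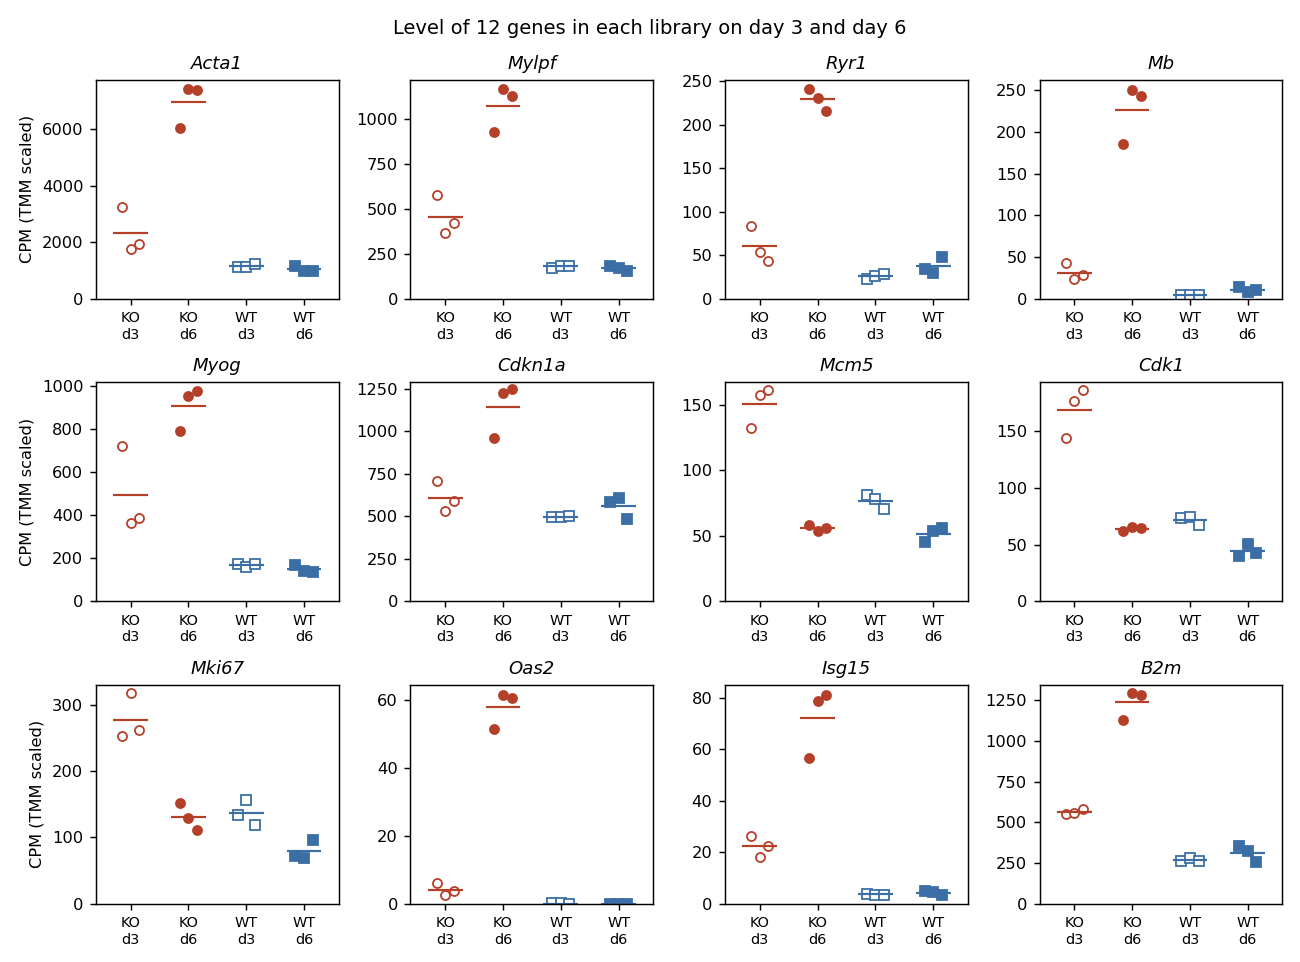
CPM of 12 genes in each library labelled KO (red circles) and WT (blue squares) on day 3 (open) and day 6 (filled), with the group mean as a line and each vertical axis starting at 0. Muscle and interferon-responsive genes lie higher and Mcm5, Cdk1 and Mki67 lower on day 6 than on day 3 in the labelled KO, without overlap between the days.

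Fusion and membrane repair genes rose in part. Of 26 tested members 17 rose and 4 fell, with a median of 0.55, against 20.2% and 21.2% of all genes. Mymk and Mymx, the 2 fusogens of myoblasts, went from 366 ± 111 to 690.0 ± 131 CPM and from 21.3 ± 7.45 to 46.4 ± 6.23 CPM, with log2 fold changes of 0.91 and 1.13. Trim72, Dysf and Cav3, which act in membrane repair and at caveolae, rose by 1.88, 1.34 and 2.08. The adhesion molecules Cdh15 and Jam2 fell: Cdh15, M-cadherin, by 0.58 and Jam2, of cell junctions, by 0.98. Of 16 synaptic genes 12 rose and 1 fell, set against the same shares. Chrng, the fetal subunit of the acetylcholine receptor, went from 131 ± 24.3 to 325 ± 48.8 CPM (1.31), and Ache, acetylcholinesterase, from 8.97 ± 0.894 to 29.3 ± 2.10 CPM (1.71). Chrne, the adult counterpart of Chrng, stayed under 1 CPM in every labelled KO library, at 0.265% of the pair by TPM on day 6, and its call (adjusted p = 0.0151) was lost with no filter on low counts (adjusted p = 0.0575), with DESeq2 (adjusted p = 0.0822) and without KO day 3 replicate 2 (adjusted p = 0.0668).

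Muscle regulators moved in both directions. Of 28 tested 8 rose and 10 fell, with a median of -0.03, where 20.2% of all genes rose and 21.2% fell. Myog, myogenin, the regulator of terminal differentiation, stood at 724, 366 and 389 CPM on day 3 and at 793, 956 and 977 CPM on day 6 (log2 fold change 0.88, SE 0.24, adjusted p = 0.00535). The day 6 libraries were all higher, although replicate 1 of day 3 came close to them. In WT it measured 173, 158 and 173 and then 168, 142 and 137 CPM. Mef2c, a partner of the myogenic factors that marks late differentiation, went from 1.14 ± 0.253 to 7.31 ± 0.540 CPM (2.68), and Tead4 and Mef2d rose by 1.36 and 0.39. Members that fell included Pax7, the satellite cell factor, by 0.89, the determination factors Myf5 and Myod1 by 0.58 and 0.54, and Msc, the E-box repressor musculin, by 1.72. Msc measured 16.2, 14.6 and 15.3 CPM on day 3 and 4.59, 5.16 and 4.27 CPM on day 6 and fell more than in WT, with a difference of -1.17 (SE 0.27, adjusted p = 0.00599). Id1, an inhibitor of myogenic factors, rose by 0.70. In bulk libraries such as these, fewer cells of a type and less RNA per cell cannot be told apart.

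Genes that hold the cell cycle shut came next. Of 15 tested CDK inhibitors, pocket proteins and growth arrest genes 5 rose and 4 fell, where 20.2% of all genes rose and 21.2% fell. Cdkn1a, p21, stood at 708, 532 and 592 CPM on day 3 and at 959, 1225 and 1251 CPM on day 6 (log2 fold change 0.91, SE 0.12, adjusted p = 2.13e-06). It rose by 0.74 more than in WT (SE 0.17, adjusted p = 0.00578), where it measured 494, 495 and 503 and then 587, 609.6 and 482 CPM. Gadd45a, a growth arrest and DNA damage gene, measured 52.1, 44.3 and 46.8 CPM and then 188, 236 and 246 CPM (log2 fold change 2.23, SE 0.13, adjusted p = 4.02e-11). It was the largest rise in this list. Rb1, the retinoblastoma gene, rose by 0.39 (adjusted p = 0.0114), a call lost without KO day 3 replicate 2 (adjusted p = 0.0604) or replicate 3 (adjusted p = 0.0774). Its relative Rbl1 (p107), itself an E2F target, fell by 1.18, and Rbl2 (p130) had a log2 fold change of -0.10 (adjusted p = 0.33). Cdkn2c (p18) fell by 0.69, and Cdkn1b (p27) did not pass the test (0.07, adjusted p = 0.494).

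Most drivers of the G1 to S transition fell. Of 27 tested 20 fell and 2 rose, with a median of -0.65, against 21.2% and 20.2% of all genes. Ccne2, cyclin E2, which activates CDK2 at the start of S phase, stood at 19.6, 27.6 and 22.8 CPM on day 3 and at 7.94, 7.31 and 7.58 CPM on day 6 (log2 fold change -1.62, SE 0.15, adjusted p = 6.75e-09). Ccne1 and Cdk4 fell by 1.29 and 0.74. The D cyclins diverged: Ccnd1 fell by 0.51, Ccnd2 rose by 0.84, and Ccnd3, the D cyclin kept by differentiated muscle, had a log2 fold change of 0.08 (adjusted p = 0.585). Among E2F factors the activator E2f1 fell by 0.65 and the late repressors E2f7 and E2f8 by 1.15 and 0.44. Foxm1 and Mybl2, which switch on the mitotic genes, went from 189 ± 14.7 to 80.7 ± 5.83 CPM and from 38.9 ± 3.71 to 14.8 ± 1.25 CPM (-1.23 and -1.39).

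All tested genes of DNA replication and of mitosis fell. The 50 replication genes all passed the test downwards, with log2 fold changes from -1.55 to -0.59 and a median of -1.12, and all 63 tested mitosis genes did, from -1.61 to -0.57 with a median of -1.32, where 21.2% of all genes fell. For all 113 every day 6 library lay below every day 3 library, which held for 28.8% of all genes. In WT, 33 of the 50 and 60 of the 63 fell, with medians of -0.425 and -0.748, against 4.92% of all genes. Every one of the 113 had a more negative estimate in the labelled KO than in WT, and the interaction test passed for 43 replication and 42 mitosis genes, none in the other direction, against 5.99% of all genes. Without KO day 3 replicate 3 these were 32 and 29. All 113 falls in the labelled KO kept their call in each fit that left out 1 library of the groups compared, and limma on log2 TPM called 62 of the 63 mitosis genes.

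The replication genes cover origin licensing, the fork and the supply of nucleotides. Mcm5, a subunit of the replicative helicase, stood at 132, 157 and 161 CPM on day 3 and at 58.3, 53.3 and 56.0 CPM on day 6 (log2 fold change -1.43, SE 0.10, adjusted p = 3.36e-10). The day 6 libraries lay close together and far from every day 3 library. In WT it went from 80.8, 78.1 and 70.8 to 45.0, 53.8 and 55.6 CPM, and the difference of the steps was -0.86 (SE 0.15, adjusted p = 0.000467). Rrm2, the regulated subunit of ribonucleotide reductase, measured 172, 213 and 212 CPM and then 84.8, 80.1 and 77.0 CPM (log2 fold change -1.30, SE 0.10, adjusted p = 4.95e-10). Tk1, thymidine kinase, fell most of this list, by 1.55, Cdc6, which loads the helicase, by 1.41 and Pcna, the sliding clamp, by 1.08. The smallest fall was that of Rfc1, the large subunit of the clamp loader, at -0.59.

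The mitosis genes include kinases, cyclins, motors and checkpoint proteins. Cdk1, the mitotic kinase, stood at 144, 177 and 186 CPM on day 3 and at 61.7, 65.9 and 65.1 CPM on day 6 (log2 fold change -1.40, SE 0.10, adjusted p = 1.53e-10). Its day 6 libraries agreed closely, and each was below every day 3 library. In WT it went from 73.3, 74.4 and 67.8 to 39.9, 50.8 and 42.6 CPM, and the difference of the steps was -0.70 (SE 0.13, adjusted p = 0.00122). Its cyclins Ccna2 and Ccnb1 fell by 1.48 and 1.46, Plk1, a kinase of mitotic entry, by 1.41 and Cdc20, which activates the anaphase-promoting complex, by 1.52. The deepest falls were those of Melk (-1.61), a mitotic kinase, and Kif23 (-1.58), a motor of cytokinesis. Top2a, which untangles chromosomes, measured 477, 584 and 552 CPM and then 237, 231 and 227 CPM (log2 fold change -1.22, SE 0.12, adjusted p = 1.35e-08). Mki67, the proliferation marker Ki-67, measured 253, 318 and 261 CPM and then 151, 129.7 and 111 CPM (log2 fold change -1.09, SE 0.14, adjusted p = 1.13e-06). Both were lower in every day 6 library than in any day 3 library. The steps of Top2a and Mki67 differed from WT by -0.45 and -0.30, which did not pass the test (adjusted p = 0.0689 and 0.35). The smallest falls were those of Cdc25b (-0.57) and Bub3 (-0.63), a checkpoint protein.

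**Figure D4:**
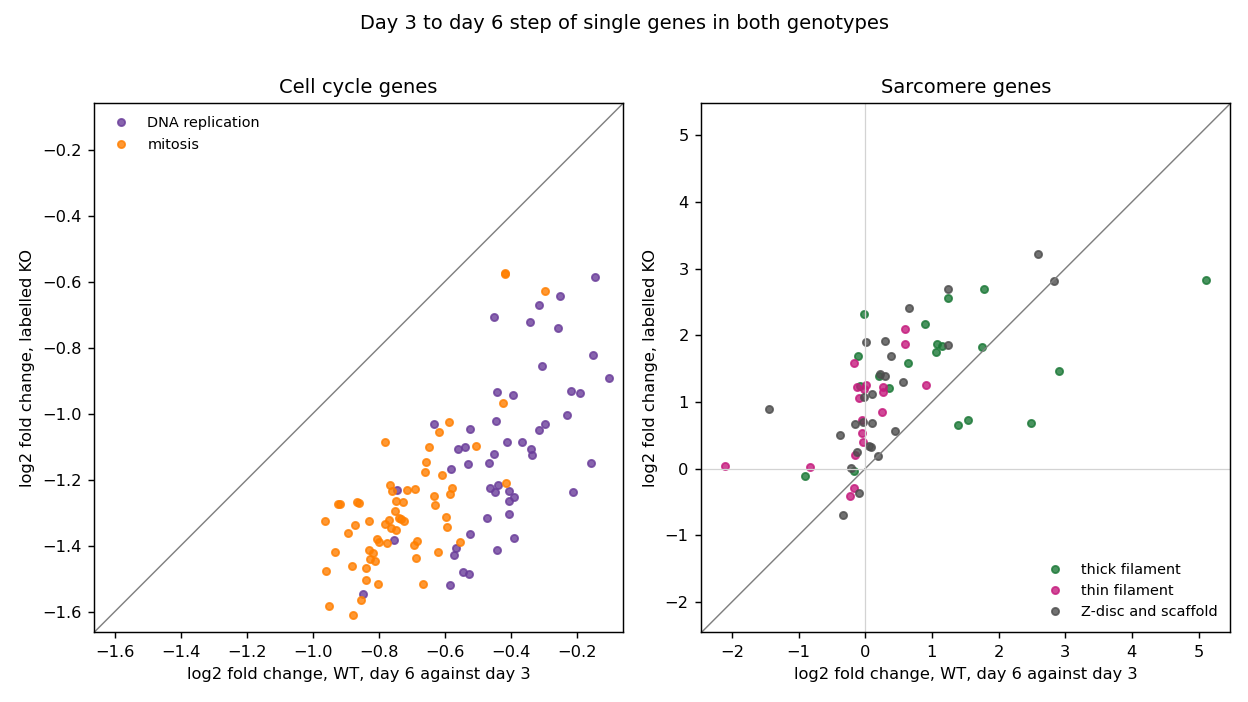
Log2 fold change from day 3 to day 6 of single genes in the labelled KO (vertical axis) against WT (horizontal axis), for replication and mitosis genes on the left and sarcomere genes on the right, with the line of equal change in grey. All 113 cell cycle genes lie below the line, and 54 of 65 sarcomere genes lie above it.

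Levels were also set against growth medium. Relative to the day 0 level of the same genotype, the median replication gene stood at 52.9% on day 1, 64.6% on day 3 and 29.4% on day 6 in the labelled KO, and at 33.9%, 43.5% and 33.1% in WT. The median mitosis gene stood at 62.4%, 78.3% and 31.3% in the labelled KO and at 36.1%, 41.2% and 24.5% in WT. From day 3 to day 6 both medians thus went down further in the labelled KO than in WT. On day 6 in the labelled KO no replication gene was above 54.9% and no mitosis gene above 63.7% of its day 0 level. Over the 50 replication genes the mean log2 CPM of a library was 4.443 to 4.477 on day 6 in the labelled KO and 4.437 to 4.546 in WT, and the 2 ranges overlapped. Over the mitosis genes it was 5.074 to 5.132 in the labelled KO, above the 4.508 to 4.785 of WT. These shares use the 3 day 0 libraries of the labelled KO but only 2 of WT, and they are descriptions without a test.

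**Figure D5:**
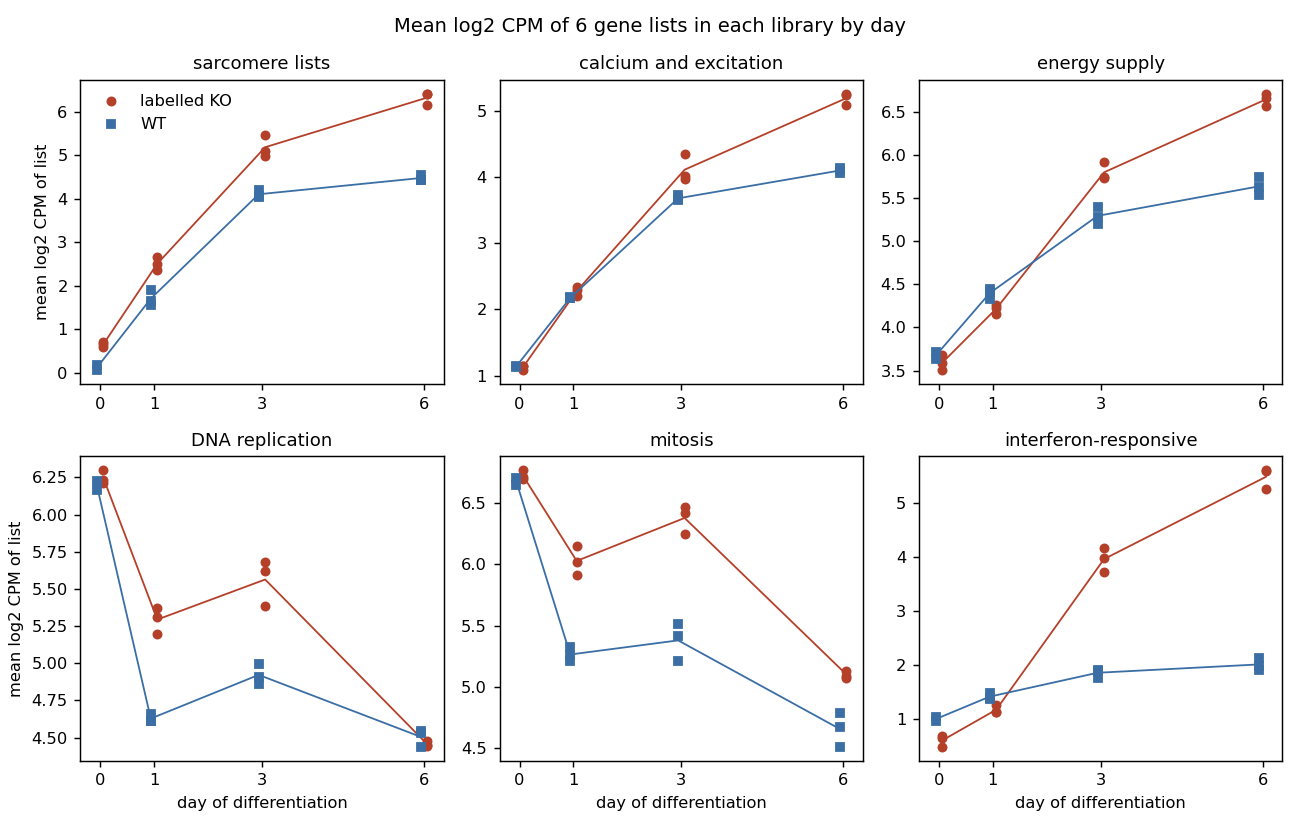
Mean log2 CPM of 6 gene lists by day of differentiation, with 1 point per library (red, labelled KO; blue, WT) and lines through the group means; the vertical axes differ between panels. The replication and mitosis lists of the labelled KO lie above WT on days 1 and 3 and drop by day 6, and its sarcomere, calcium, energy and interferon lists lie above WT on days 3 and 6.

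E2F sites mark many S-phase genes, and the cell cycle genes homology region (CHR), often beside CCAAT boxes, marks G2 and M genes. Upstream stretches of 6 falling genes are shown because they hold these elements. Capitals mark CHR (TTTGAA or TTCGAA) and CCAAT in the first 4, an E2F site (TTTCCCGC or TTTGGCGC) and CCAAT in Mcm5, and an E2F site alone in Cdc6, on either strand. Build, source and orientation are those given for the muscle promoters.
Cdk1, chr10:69352943-69353002, minus strand: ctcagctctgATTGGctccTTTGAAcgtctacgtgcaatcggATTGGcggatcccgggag
Cdc20, chr4:118437354-118437433, minus strand: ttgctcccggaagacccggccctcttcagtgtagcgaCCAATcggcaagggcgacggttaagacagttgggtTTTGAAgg
Top2a, chr11:99024200-99024289, minus strand: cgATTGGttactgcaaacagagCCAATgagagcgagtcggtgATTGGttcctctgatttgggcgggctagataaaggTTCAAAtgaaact
Mki67, chr7:135716470-135716569, minus strand: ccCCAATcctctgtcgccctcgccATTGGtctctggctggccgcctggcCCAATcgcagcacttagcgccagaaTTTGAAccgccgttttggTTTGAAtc
Mcm5, chr8:75109349-75109438, plus strand: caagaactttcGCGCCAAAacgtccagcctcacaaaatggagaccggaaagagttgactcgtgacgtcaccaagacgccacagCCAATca
Cdc6, chr11:98907991-98908080, plus strand: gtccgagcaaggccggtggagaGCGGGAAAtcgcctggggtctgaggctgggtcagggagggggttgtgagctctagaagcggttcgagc
In the 250 bases upstream of the start, CHR letters were found in 25 of 60 promoters of the mitosis list (41.7%), in 16.7% of those of the replication list and in 17.1% of all mouse promoters. CCAAT was found in 71.7% of mitosis, 56.2% of replication, 50% of energy, 45.5% of calcium and 33.8% of all promoters. The E2F letters were found in 12.5% of replication, 6.67% of mitosis, 6.12% of interferon and 1.3% of all promoters. Promoters were matched for 55 of 65 mitosis and 40 of 50 replication genes, and some genes have more than 1.

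Interferon-responsive genes formed the other large rising group. Of 54 tested members 49 rose and 1 fell, with a median log2 fold change of 1.41, against 20.2% and 21.2% of all genes. In WT 4 rose and 2 fell with a median of 0.16, near the 4.87% and 4.92% of all genes. The interaction test gave a more positive step in the labelled KO for 36, against 6.36% of all genes. Oas2, an enzyme that senses double-stranded RNA, stood at 6.16, 2.68 and 3.68 CPM on day 3 and at 51.5, 61.3 and 60.6 CPM on day 6 (log2 fold change 3.79, SE 0.22, adjusted p = 3.36e-10). In WT Oas2 had at most 2 counts in any library of either day. Its relatives Oas3 and Oas1a rose by 3.81 and 3.57. Oas1a and Oas1g belong to a cluster of close copies, so that reads may be divided between them uncertainly. Isg15, a ubiquitin-like modifier, measured 26.4, 18.2 and 22.4 CPM and then 56.8, 78.8 and 81.2 CPM (log2 fold change 1.69, SE 0.14, adjusted p = 2.65e-09). Irf7, a transcription factor of the response, rose by 1.82, and Bst2, a surface protein, and Ifit1, which binds viral RNA, by 2.12 and 1.49.

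The same list held B2m and H2-K1. B2m, the light chain of MHC class I, stood at 552, 559 and 579 CPM on day 3 and at 1130.3, 1293 and 1284 CPM on day 6 (log2 fold change 1.13, SE 0.10, adjusted p = 4.59e-09). The 3 libraries of each day agreed closely, and in WT B2m measured 262, 279 and 265 and then 354, 325 and 255 CPM. H2-K1, a class I heavy chain, rose by 1.35. The receptor subunit Ifnar1 was the 1 member that fell, by 0.20 (adjusted p = 0.0238), a call lost in 9 alternatives (adjusted p of 0.0732 to 0.222). Irf1 did not pass the test (-0.13, adjusted p = 0.142). Transcripts of Ifnb1, interferon beta, were at 0 in 5 of the 6 libraries and at 0.043 CPM in the sixth, under the 3-count limit.

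The interferon-stimulated response element is bound by transcription factors that interferon signalling activates. Upstream stretches of 4 rising genes that hold its core (GAAA, any 2 bases, then GAAA, on either strand) are shown with the core in capitals. Overlapping cores run together. Build, source and orientation are as above.
Isg15, chr4:156200859-156200918, minus strand: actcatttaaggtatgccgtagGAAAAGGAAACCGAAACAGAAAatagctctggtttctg
Ifit1, chr19:34640769-34640828, plus strand: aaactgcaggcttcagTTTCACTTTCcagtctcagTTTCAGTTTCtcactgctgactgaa
Bst2, chr8:71537563-71537622, minus strand: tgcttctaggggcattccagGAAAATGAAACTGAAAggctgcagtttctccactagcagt
Oas3, chr5:120777700-120777759, minus strand: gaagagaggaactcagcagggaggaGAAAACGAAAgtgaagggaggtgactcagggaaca
This core was found in 15 of 49 interferon promoters (30.6%), in 0 of 66 sarcomere, 0 of 48 replication and 0 of 38 energy promoters, in 3 of 60 mitosis (5%) and 1 of 22 calcium promoters (4.55%), and in 2.98% of all promoters, with 42 of 55 genes matched.

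Matrix and proteolysis genes moved less. Of 48 tested matrix genes 25 rose and 6 fell, with a median of 0.36, against 20.2% and 21.2% of all genes. Col1a1, collagen I, went from 380.5 ± 125 to 920.0 ± 27.4 CPM and Lox, which crosslinks collagen, from 734 ± 48.8 to 1627 ± 17.5 CPM. Both remained below WT, where Col1a1 measured 5451, 7581 and 6194 CPM and Lox 3101, 2548 and 3212 CPM on day 6. Of 22 genes of muscle proteolysis 16 rose and 1 fell, with a median of 0.44: the muscle ubiquitin ligases Trim63 and Fbxo32 rose by 2.21 and 0.48, and their regulator Foxo1 by 0.91. Of 17 Notch and reserve cell genes 4 rose and 6 fell, of 26 growth factor genes 9 rose and 4 fell, and of 21 p53 and cell death genes 5 rose and 5 fell, where 20.2% of all genes rose and 21.2% fell. Of 35 ribosomal protein genes 0 passed edgeR's test in either direction, with a median of -0.01.

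Single genes were then ranked by fold change. Among genes with a mean of at least 5 CPM on one of the days and no overlap, the 10 largest rises included those of Oas1g, Car6, P2rx3, Oas3, Oas2, Csprs, Trim30a, Oas1a and Camk2b. Oas1g, with at most 7 counts in a day 3 library, went from 0.255 ± 0.0702 to 12.6 ± 2.98 CPM, and Car6, a secreted carbonic anhydrase, from 0.239 ± 0.0922 to 6.33 ± 1.03 CPM (4.69). P2rx3, an ATP-gated ion channel, went from 0.344 ± 0.112 to 8.32 ± 0.416 CPM (4.57) and Camk2b, a calcium-dependent kinase, from 1.04, 0.849 and 0.853 CPM to 9.26, 10.2 and 10.6 CPM (3.45). Trim30a, an interferon-responsive protein that was not on the list, rose by 3.58 and Csprs by 3.58. Car6 and P2rx3, like Oas1g, had at most 10 counts in a day 3 library, so that their fold changes are imprecise and depend on the prior count. The 10 deepest falls were those of Mest (-2.08), Aunip (-1.93), Tubb3 (-1.91), Pclaf (-1.82), Msc, Dna2 (-1.67), Exo1 (-1.62), Ccne2, Melk and Gprin1 (-1.60). Aunip, Pclaf, Dna2 and Exo1 act in DNA replication, repair or mitosis and were not on the fixed lists. Mest, an imprinted gene, measured 15.1, 17.7 and 16.6 CPM on day 3 and 3.75, 4.26 and 3.70 CPM on day 6, and Tubb3, a beta-tubulin, 98.2, 85.2 and 81.5 CPM and then 24.2, 23.5 and 22.8 CPM. In both the day 6 libraries lay within a narrow band far below day 3.

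The difference between the steps of the genotypes was ranked in a similar way. Here a mean of at least 5 CPM in any group of either genotype sufficed, and no overlap was not required. There the most positive differences were those of Oas2, Il20rb, Oas1a, H2-T24 and Hhatl. Il20rb, a cytokine receptor subunit, measured 1.72, 1.25 and 1.17 CPM and then 5.87, 10.5 and 10.3 CPM in the labelled KO and 0.566, 0.303 and 0.217 and then 0.129, 0.266 and 0.210 CPM in WT. The difference was 3.51 (SE 0.56, adjusted p = 0.000232), with H2-T24, a class I relative, at 3.34 and Hhatl at 3.09. Il20rb and Hhatl had at most 13 and 11 counts in any WT library of the step, which limits the precision of their differences. Oas2 and Oas1a were near 0 in WT, with at most 2 and 7 counts per library, so that their fitted differences (5.47 and 3.43) depend on the prior count. The most negative were those of Bnc1, Adprhl1, Ckmt2, Scara3 and Prl2c2. Adprhl1 rose in the labelled KO, from 3.99 ± 0.357 to 23.9 ± 4.18 CPM, and in WT from at most 1 count per library on day 3 to 2.06, 1.69 and 2.22 CPM, so that its fitted difference (-3.28) depends on the prior count. The same holds for Ckmt2, mitochondrial creatine kinase of muscle, which had at most 1 count per library on day 3 in WT and rose in the labelled KO by 2.76. Bnc1 and Scara3 were almost silent in the labelled KO, with at most 9 and 10 counts in any library of the step, so that their fitted differences rest on a group near 0 and their rank is no measure of size. They passed the level of 5 CPM through WT, where they measured 12.2, 12.2 and 13.3 and 14.8, 17.3 and 16.4 CPM on day 6. Prl2c2 did not pass the test in the labelled KO (0.12, adjusted p = 0.899) and rose in WT from 2.05, 2.64 and 3.43 to 20.9, 9.27 and 7.88 CPM, where replicate 1 was the highest.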

How the data were processed

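Poly(A) RNA of C2C12 cells was sequenced by the authors and deposited as 2 tables over 23 libraries. One holds estimated counts per gene and the other TPM. The submitters' processing notes name Bowtie2, RSEM and the mm10 build. Versions, annotation and strand setting are not given in the sources used here, so reads of overlapping or antisense genes and of close copies may be divided uncertainly. Of 32793 rows, 12326 were 0 in every library.

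The deposited estimated counts were rounded and tested with edgeR 4.0.16 in R 4.3.3 (filterByExpr with a minimum count of 10 and total of 15, TMM scaling, quasi-likelihood F-test). One group-means model covered all 8 groups, and adjustment was by Benjamini-Hochberg over 14187 genes with a threshold of 0.05. The common biological coefficient of variation was 9.61%. CPM are TMM-scaled. The labelled KO step, the WT step and their difference were tested. The deposited TPM served for levels between genes and shares of pairs. The test was also tried on simulated counts with known changes, with means and spread taken from these libraries. It recovered 58.2% of 1.5-fold, 85.1% of 2-fold and 100% of 4-fold changes, and 4.71% of its calls were false. Replicates were distinct libraries, with chi-square per degree of freedom of 3.67 to 16.1 between them. Alternatives were other scalings, filters and thresholds, DESeq2 1.42.0, limma 3.58.1 on log2 TPM, a replicate block and leaving out each library. Upstream sequence came from RefSeq promoter records (GRCm38.p6).

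Members and lists were chosen with earlier results of these data known. Genes were named as members of the lists (the most abundant, the largest changes, and key members without a call), as the 10 largest changes each way with a group mean of at least 5 CPM, and as the 5 largest differences of the steps each way. A gene that these rules name is not reported here.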

Additional observations from a re-analysis of the deposited data

Results flagged for a closer look

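These results were picked out because the day 3 to day 6 step differed between the libraries labelled KO and WT in the interaction test of edgeR. It did for 1753 of 14187 genes. Among them were 43 replication and 42 mitosis genes with a steeper fall in the labelled KO, and 31 sarcomere, 16 calcium and 36 interferon genes with a more positive step, among them Actc1, which did not rise in the labelled KO. All values that follow are differences of the steps, labelled KO minus WT, on the log2 scale, with an adjusted p under 0.05.

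Runx1 itself differed by 0.48. In the contractile apparatus the differences were 1.76 for Acta1, 2.14 for Actc1, 1.31 for Mylpf, 0.69 for Myl4, 1.28 for Myom2, 1.27 for Neb, 1.15 for Tnnt3, 0.88 for Tnnt2, 1.36 for Tnni2, 1.22 for Tnnc2, 0.88 for Ttn and 1.61 for Csrp3, with -1.45 for Myh1. For calcium handling they were 1.40 for Ryr1, 1.02 for Cacna1s, 1.44 for Cacnb1, 0.78 for Atp2a1, 1.30 for Atp2a2 and 1.04 for Jph2. For energy supply they were 1.62 for Mb, 0.62 for Pygm, 0.57 for Pfkm, 1.05 for Hk2, 1.03 for Gys1, 1.41 for Cox6a2 and 2.04 for Ckm, against -3.10 for Ckmt2, with at most 1 count per WT library on day 3, and -0.50 for Idh2. Membrane and synapse genes gave 0.88 for Trim72, 0.84 for Dysf, 0.86 for Chrng, 1.11 for Ache and -0.68 for Jam2. Regulators gave 1.06 for Myog, 1.14 for Tead4, 0.49 for Mef2d and -1.17 for Msc.

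Genes of cell cycle arrest gave 0.74 for Cdkn1a, 1.44 for Gadd45a, 0.58 for Rb1 and -0.53 for Rbl1. G1 to S genes gave -1.02 for Ccne1, -1.03 for Ccne2, -0.48 for Cdk4 and -0.74 for E2f1. Replication genes gave -0.86 for Mcm5, -0.97 for Cdc6, -0.72 for Pcna, -0.90 for Rrm2, -0.70 for Tk1 and -0.44 for Rfc1. Mitosis genes gave -0.70 for Cdk1, -0.52 for Ccna2, -0.58 for Ccnb1, -0.58 for Plk1, -0.72 for Cdc20, -0.63 for Kif23 and -0.73 for Melk. Further genes with a cell cycle role or among the deepest falls gave -1.12 for Mest, -1.03 for Aunip, -1.14 for Tubb3, -0.78 for Pclaf, -1.07 for Dna2, -1.02 for Exo1 and -1.12 for Gprin1.

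Interferon-responsive genes gave 3.43 for Oas1a, 5.47 for Oas2, 2.93 for Oas3, 1.48 for Isg15, 1.45 for Ifit1, 1.44 for Bst2, 0.92 for B2m, 1.14 for H2-K1, 1.31 for Irf7 and 2.42 for Trim30a. The values of Oas1a, Oas2 and Oas3 depend on the prior count, because WT libraries held at most 7, 2 and 7 counts. Matrix, proteolysis and lysosome genes gave 1.04 for Col1a1, 0.85 for Lox, 0.58 for Foxo1 and 1.38 for Cd68. Other genes with extreme values gave 3.02 for Car6, 2.57 for P2rx3, 1.89 for Camk2b, 3.51 for Il20rb, 3.34 for H2-T24, 3.09 for Hhatl, -4.85 for Bnc1, -3.28 for Adprhl1, -2.93 for Scara3 and -2.11 for Prl2c2. Those of Bnc1 and Scara3 rest on at most 9 and 10 counts in any labelled KO library of the step, and that of Adprhl1 on at most 1 count per WT library on day 3, so that they depend on the prior count. Those of Car6 and P2rx3 rest on at most 7 and 10 counts in labelled KO libraries on day 3, and those of Il20rb and Hhatl on at most 13 and 11 counts in WT libraries, which makes them imprecise. The genes described among the other observations gave 1.96 for Trib3, 1.25 for Asns, 1.58 for Slc7a5 and 2.17 for Nos2.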

How the results depend on the processing

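With an absolute log2 fold change of at least 1 required beside the adjusted p, the labelled KO step had 1389 calls, the WT step 233 and the difference of the steps 370. Of the genes with a step difference in the direction of the list, 1 replication, 0 mitosis, 19 sarcomere, 9 calcium and 23 interferon genes then remained in the count, against 43, 42, 31, 16 and 36. With an adjusted p under 0.01 the WT step had 698 calls and the difference 776, with 24 mitosis, 10 calcium and 23 interferon genes. Leaving out KO day 1 replicate 2, an alternative chosen after seeing the data, gave 6844 calls for KO day 6 against day 3, 2271 for WT and 2837 for the difference, 52 sarcomere, 26 calcium and 20 energy genes rising, and step differences for 47 replication, 54 mitosis, 37 sarcomere and 39 interferon genes. Leaving out each library of the groups compared in turn gave 4941 to 5342 calls for the labelled KO step, 762 (without WT day 6 replicate 1) to 1579 (without WT day 6 replicate 3) for WT and 1125 (without KO day 3 replicate 3) to 1893 (without KO day 3 replicate 1) for the difference. It left 46 to 51 sarcomere, 22 to 24 calcium, 17 to 19 energy and 49 to 50 interferon genes rising, and 50 replication and 63 mitosis genes falling. The step differences in the direction of the list then ranged over 32 to 46 replication, 29 to 45 mitosis, 26 to 36 sarcomere, 12 to 16 calcium and 28 to 38 interferon genes. The cause of these shifts was not tested. The split of the differences moved from 903 higher and 850 lower to 1072 and 664 with RLE size factors, 1243 and 784 with DESeq2 and 1117 and 656 at a mean count of at least 50.

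Of 126 named genes with a call, 120 kept direction and call in every alternative fit in which they were tested. Ttn, Ifnar1, Rb1, Chrne, Bnc1 and Scara3 lost the call in some. The stricter thresholds on adjusted p and fold change were not part of this count. Over fits without 1 library, the uncalled Actc1 ranged from -0.17 (without KO day 3 replicate 2) to 0.54 (without KO day 3 replicate 1), and was -0.14 without KO day 3 replicate 3 and -0.0072 without KO day 6 replicate 3. Myh3 turned to 0.12 and 0.13 with limma on log2 TPM with pseudocounts of 1 and 0.1, and ranged from -0.29 without KO day 3 replicate 2 to 0.28 without KO day 3 replicate 1. Prl2c2 ranged from -0.11 without KO day 6 replicate 2 to 0.40 without KO day 6 replicate 1, and was -0.0085 without KO day 3 replicate 1. Deviations of same-numbered day 3 and day 6 libraries of the labelled KO correlated at 0.0351, -0.0304 and 0.0461. Not every library correlated best with its own number. With 3 libraries per group, these values cannot settle whether the numbers pair the libraries. A fit with the replicate block gave 5722, 1279 and 1644 calls for the labelled KO step, the WT step and the difference. A count of 3 corresponds to 0.129 to 0.136 CPM, and fold changes of genes near that level, such as Chrne, Bnc1 and Scara3 in the labelled KO, are poorly resolved at this depth.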

Other observations

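Further gene groups that no list of the report covers also moved over the step. They were chosen after their values were seen, and no support is drawn from their counts. Genes that respond to amino acid shortage through the factor Atf4 rose in the libraries labelled KO, 19 of 21 tested against 1 that fell, with a median log2 fold change of 1.15, and in WT 1 rose and 1 fell. Over all genes tested, 20.2% rose and 21.2% fell in the labelled KO, and 4.87% and 4.92% in WT. Asns, asparagine synthetase, measured 90.8, 54.3 and 62.1 CPM on day 3 and 155, 169 and 159 CPM on day 6 (log2 fold change 1.22, SE 0.13, adjusted p = 1.35e-07). Slc7a5, an importer of large neutral amino acids, measured 202, 142 and 147 CPM and then 406, 438 and 458 CPM (log2 fold change 1.41, SE 0.13, adjusted p = 5.55e-09). Trib3, a pseudokinase induced in the same response, measured 12.3, 7.95 and 8.66 CPM and then 49.9, 51.1 and 51.6 CPM (log2 fold change 2.40, SE 0.18, adjusted p = 6.28e-10). In these 3 genes every day 6 library lay above every day 3 library. The mean log2 CPM of the 21 genes in the labelled KO was 5.618 in growth medium, 4.897 on day 1, 5.311 on day 3 and 6.339 on day 6, and in WT 5.65 on day 3 and 5.644 on day 6.

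Cholesterol synthesis genes fell in both genotypes. In the labelled KO 15 of 20 fell and 1 rose, with a median of -0.54, and in WT 18 fell, where 21.2% and 4.92% of all genes fell. Idi1, an enzyme of isoprenoid synthesis, fell by 0.85 in the labelled KO. Lysosomal genes rose, 18 of 23 with 1 falling in the labelled KO and 13 rising in WT, where 20.2% and 4.87% of all genes rose. Of 10 tubulin genes 6 fell and 1 rose in the labelled KO, and 8 fell in WT, to be set against the same shares of falling genes. Nos2, the inducible nitric oxide synthase, measured 27.7, 40.3 and 27.6 CPM on day 3 and 293, 299.6 and 293 CPM on day 6 in the labelled KO (log2 fold change 3.21, SE 0.45, adjusted p = 4.7e-06). In WT it measured 147, 120.2 and 154 CPM and then 341, 279 and 249 CPM, so that the day 6 levels of the genotypes overlapped after a day 3 level that was lower in the labelled KO.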
